A study of Mus musculus with 2 samples.

Results

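Chemokines and their receptors were examined by RNA-seq in primary hepatocytes of control mice and of mice injected with CCl4, a solvent whose metabolism in the liver cell injures it and, given repeatedly, leads to fibrosis. The members are all mouse genes whose symbol names a chemokine ligand (Ccl, Cxcl, Cx3cl1, Xcl1), a classical receptor (Ccr, Cxcr, Cx3cr1, Xcr1) or an atypical receptor (Ackr1 to Ackr4). They were found by symbol alone, and 61 of 20317 genes with a symbol met the rule, namely 39 ligands and 22 receptors. Both groups were wild-type (WT) male C57BL/6J mice, obtained at 5 weeks of age. The oil group received intraperitoneal oil, and the CCl4 group 20% CCl4 dissolved in oil, dosed at 2.5 ml per kilogram with 2 injections per week. The labels give 8 weeks of injection, whereas the methods of the study give 4 weeks. Hepatocytes were freed by enzyme perfusion and purified on a density gradient, and how many mice gave each library is not given in the sources used here. Each group had 1 library, so none of the differences has a replicate check and no p-value is given.

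Chemokines are small secreted proteins that guide migrating cells along a gradient. They bind receptors with a membrane-spanning bundle that signal through inhibitory G proteins, and they are held on cell surfaces by heparan sulfate. Atypical receptors bind the same ligands without G protein signalling, and clear or relocate them. In injured liver, macrophages, sinusoidal endothelial cells, stellate cells and hepatocytes are all known sources of ligands, while most receptors are carried by leukocytes.

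In what follows, oil and CCl4 stand for the oil library and the CCl4 library. Levels are given in RPKM, reads scaled to transcript length and to sequencing depth, so that they can be compared between genes. The library totals behind these values were 57992568 (oil) and 64655517 (CCl4) reads, as recovered from their step size, and those behind the separate table of new lncRNAs were 62438205 and 70960848 reads. Values under 1 RPKM were listed as 0. For each gene listed in both libraries the ratio of CCl4 over oil RPKM is given with a 95% interval that covers counting error only. A gene was called higher or lower at 2-fold or more. A listed 0 was set at the limit of 1 RPKM for this call, so that a gene at 0 in a library counts as called only if the other library exceeded 2 RPKM. All 19 housekeeping genes looked up with a row were listed above 0 in both libraries. The median gene among the 10689 listed in both libraries was 1.23 times as high in the CCl4 library, a log2 shift of 0.30. Values relative to it are given where they change the call of a member described here.

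Of the 61 members, 36 reached 1 RPKM in at least 1 library, and 25 were listed at 0 in both. Of these 36 members, 13 (36.1%) were higher in the CCl4 library, where 16.5% of all 12012 measured genes were. Another 3 (8.33%) were lower, beside 5.39% of all measured genes. The median log2 ratio of the measured members was 0.66, and that of all measured genes was 0.33. Relative to the median gene, 9 members (25%) were higher and 4 (11.1%) lower by 2-fold, beside 9.39% and 9.4% of all measured genes. Calls lost by this scaling included *Ackr3*, *Ccr2* and *Ccr7*, and *Cxcl10* was gained as lower. Among the 29 members listed in both libraries, the interval lay wholly above the median gene's ratio for 15 and wholly below it for 4.

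**Figure D1:**
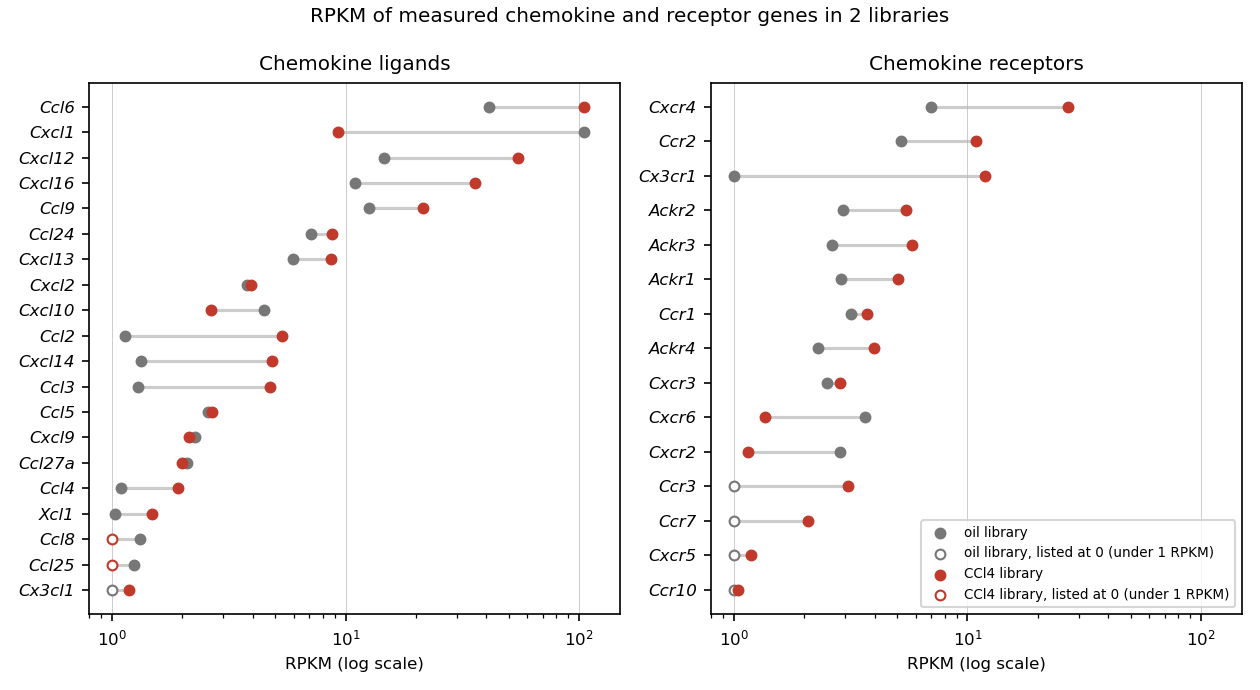
RPKM (log scale) of the measured ligands (left) and the reported receptors (right), with 1 point for each library. Open points mark a value listed at 0, drawn at the limit of 1 RPKM. Cxcl1 moved from 105 RPKM in the oil library to 9.27 RPKM in the CCl4 library, whereas Ccl6, Cxcl12 and Cxcl16 lay further right in the CCl4 library.

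The summed level of the ligands was 221.2 RPKM in oil and 276.7 RPKM in CCl4. That of the receptors was 47.37 RPKM and 110.6 RPKM. The make-up of the ligand total differed between the libraries. *Cxcl1* alone held 105 RPKM of it in oil and 9.27 RPKM in CCl4, and *Ccl6* held 41.2 RPKM and 105 RPKM. By role, 3 of 8 measured inflammatory CC ligands were higher, 2 of 5 homeostatic ligands, 1 of 3 interferon-induced or related CXC ligands, 6 of 12 signalling receptors and 1 of 4 atypical receptors. The called-lower genes were 1 of 2 measured neutrophil-attracting CXC ligands and 2 of the 12 signalling receptors. Of all measured genes 16.5% were higher and 5.39% lower. The roles hold few genes each, and none was tested against these shares.

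**Figure D2:**
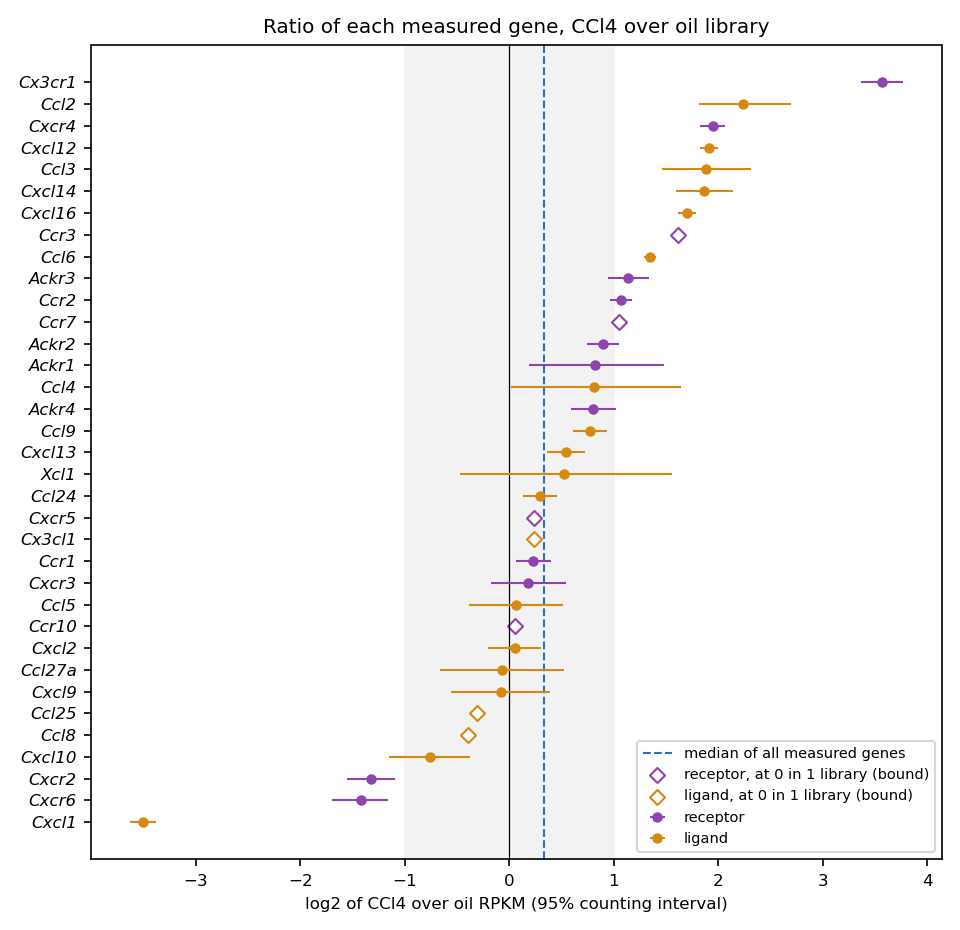
Log2 of the CCl4 over oil RPKM for the measured members that are reported here, with 95% counting intervals. Diamonds are bounds for genes listed at 0 in a library, the grey band is 2-fold and the dashed line is the median of all measured genes at 0.33. Cx3cr1 and Cxcl1 are the outermost points, at 3.56 and -3.50.

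The libraries held RNA of other cell types, whose markers are given here because most receptors belong to them. The counts that follow stand beside 16.5% of all measured genes called higher and 5.39% called lower. Of 10 hepatocyte markers 6 were lower and 1 higher in the CCl4 library, and their sum was 17960 and 10280 RPKM. *Cyp2e1* (645 and 128 RPKM) was among the lower ones, while *Alb* (8656 and 6476 RPKM) was not called. All 10 stellate cell and myofibroblast markers were higher, with sums of 78.53 and 905.5 RPKM. *Pdgfrb* was the only marker of that list at 0 in the oil library. Of 9 Kupffer cell and macrophage markers 6 were higher (sums of 1218 and 2507 RPKM), of 8 monocyte markers 3 (427 and 1780 RPKM) and of 7 measured dendritic cell markers 3 (16.12 and 40.28 RPKM). *Lyz2*, of myeloid cells in general, held 321 and 1645 RPKM of the monocyte sums. The median log2 ratio of the monocyte list was 0.45, beside 0.33 for all measured genes. The monocyte list holds the member *Ccr2*, and the dendritic cell list holds *Ccr7* and *Xcr1*. *Clec4f*, which marks resident Kupffer cells, had 283 and 255 RPKM, and *Ly6c2*, of inflammatory monocytes, 17.7 and 10.8 RPKM. Of 9 neutrophil markers 1 was higher and 2 lower (322.7 and 228.7 RPKM). Among 5 measured T cell markers none was called (8.6 and 7.466 RPKM), and *Cd3e* and *Cd8a* were listed at 0 in both. Of 4 measured markers of NK and innate lymphoid cells 1 was lower (13.34 and 5.132 RPKM), with *Ncr1*, *Eomes* and *Prf1* at 0 in both. Of 6 measured B cell and plasma cell markers 4 were higher (9.275 and 30.6 RPKM), with *Pax5* at 0 in both. Of 8 sinusoidal endothelial markers 1 was higher (511.6 and 854.1 RPKM). Of the remaining lists, 2 of 4 measured cholangiocyte markers (50.86 and 170.2 RPKM), 3 of 4 platelet markers (10.89 and 30.28 RPKM) and 1 of 4 mesothelial markers (27.36 and 47.02 RPKM) were higher. *Spp1* alone held 37.4 and 145 RPKM of the cholangiocyte sums. In bulk RNA, fewer cells of a type and less RNA per cell cannot be told apart, and the part of these cell types in the results on chemokines was not tested. Relative to the median gene, all 10 stellate cell markers were still higher, 8 hepatocyte markers were lower, and the counts of higher Kupffer cell and macrophage, monocyte and dendritic cell markers were 2, 2 and 1. By the same scaling, 4 of 9 neutrophil markers and 2 of 4 NK and innate lymphoid cell markers were lower. These scaled counts stand beside 9.39% of all measured genes called higher and 9.4% called lower.

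Among the ligands that attract neutrophils, *Cxcl1* was lower and its neighbour *Cxcl2* was not called. *Cxcl1*, made by hepatocytes, stellate and endothelial cells on inflammatory signals, had 105 RPKM in oil and 9.27 RPKM in CCl4. It was the most abundant of all members in the oil library. This is 11.3-fold lower, a log2 ratio of -3.50 (-3.63 to -3.38), from at least 5776 and 569 reads. *Cxcl2*, which acts on the same receptor, had 3.79 and 3.93 RPKM, a ratio of 1.04 (0.868 to 1.24), which is below that of the median gene. *Cxcl3*, *Cxcl5* and *Cxcl15* were listed at 0 in both libraries. Their receptor *Cxcr2*, carried mainly by neutrophils, was lower as well. It had 2.85 RPKM in oil and 1.14 RPKM in CCl4, a ratio of 0.401 (0.341 to 0.470), or 2.49-fold lower. *Cxcr1*, the related receptor, was listed at 0 in both. Beside these values, the neutrophil markers *S100a8* (114 and 65.2 RPKM) and *S100a9* (163 and 91.5 RPKM) were less than 2-fold lower. *Elane* (2.74 and 1.04 RPKM) was lower, *Mpo* went from 3.11 RPKM to a listed 0, and *Retnlg* (17.0 and 48.7 RPKM) was higher. *Csf3r*, *Camp*, *Ngp* and *Ltf* were not called.

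*Cxcl1* (chr5:90891245-90893121, GRCm38) and *Cxcl2* (chr5:90903899-90905938) lie 10.78 kb apart on the plus strand, in a cluster that also holds the 3 unlisted ligands. Because adjacent genes with related regulatory sequence had ratios of 0.0884 and 1.04, the 250 bases before each start are shown, from RefSeq (GRCm38.p6). The sequence of *Cxcl10*, described further on, is shown with them, since it holds the same motif. *Cxcl10* had a ratio of 0.590 and was not called, though it was lower by 2-fold relative to the median gene. Capitals mark matches to the NF-kappaB consensus, the AP-1 site TGANTCA, the interferon-response core GAAANNGAA and the TATA box TATAAA, searched on both strands.
Cxcl1, chr5:90890995-90891244, plus strand: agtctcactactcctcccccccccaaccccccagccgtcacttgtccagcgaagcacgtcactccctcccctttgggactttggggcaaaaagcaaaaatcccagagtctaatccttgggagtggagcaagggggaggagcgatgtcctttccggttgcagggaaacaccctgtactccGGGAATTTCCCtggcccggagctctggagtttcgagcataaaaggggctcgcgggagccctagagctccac
Cxcl2, chr5:90903649-90903898, plus strand: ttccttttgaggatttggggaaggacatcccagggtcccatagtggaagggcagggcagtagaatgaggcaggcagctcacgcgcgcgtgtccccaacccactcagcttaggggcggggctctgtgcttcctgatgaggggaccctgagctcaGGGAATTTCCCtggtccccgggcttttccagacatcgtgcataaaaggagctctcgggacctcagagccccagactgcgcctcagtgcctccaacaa
Cxcl10, chr5:92348890-92349139, minus strand: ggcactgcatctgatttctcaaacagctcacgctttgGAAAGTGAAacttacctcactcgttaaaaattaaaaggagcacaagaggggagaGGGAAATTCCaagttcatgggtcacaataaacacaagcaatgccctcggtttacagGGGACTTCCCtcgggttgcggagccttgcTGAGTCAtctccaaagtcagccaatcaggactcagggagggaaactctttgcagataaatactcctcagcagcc
*Cxcl1* and *Cxcl2* both carried the run GGGAATTTCCC, which matches the NF-kappaB consensus on both strands. It began 71 bases before the start of *Cxcl1* and 97 bases before that of *Cxcl2*. *Cxcl3*, listed at 0, held GGGAATTTCC 73 bases before its start. *Cxcl10* held separate NF-kappaB matches 159 and 103 bases before its start, an interferon-response core at 213 and an AP-1 match at 74 bases.

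The NF-kappaB consensus, over the 300 bases from 250 before to 50 after the start, matched in 4.35% of 27018 mouse promoters, counting 1 start per gene. Of the 27 measured members with a promoter in the table, 6 held it (*Ackr2*, *Ccl9*, *Ccr3*, *Cxcl1*, *Cxcl2* and *Cxcl10*), and these were higher, lower and within 2-fold alike. The interferon-response core was found in 5 of the 27 and in 8.58% of all promoters, the AP-1 site in 4 and in 7.94%, and TATAAA in 8 and in 14.2%. These are matches of letters, and AP-1 and NF-kappaB matches on both strands overlap because the motifs are nearly palindromic.

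The interferon-induced ligands were not higher in the CCl4 library, whereas *Cxcl16* was. *Cxcl10*, which draws activated T cells and NK cells, had 4.48 RPKM in oil and 2.64 RPKM in CCl4. Its ratio of 0.590 (0.450 to 0.770) is 1.70-fold lower, and its log2 ratio lay 1.06 under that of the median gene. It overlaps *Art3*, whose level was 2.22 and 7.36 RPKM. *Cxcl9*, the related interferon-gamma target, had 2.26 and 2.13 RPKM, with a ratio of 0.944 (0.681 to 1.31). Their shared receptor *Cxcr3* had 2.51 and 2.85 RPKM, a ratio of 1.13 (0.884 to 1.46). *Cxcl16*, a membrane-bound ligand that also takes up oxidized lipoprotein, had 11.0 RPKM and 35.8 RPKM, a ratio of 3.25 (3.07 to 3.45). The span of *Cxcl16* overlaps that of *Zmynd15*, which had 4.06 and 11.5 RPKM. *Cxcr6*, the receptor of *Cxcl16* on liver T cells and NKT cells, lay on the other side. It had 3.63 RPKM in oil and 1.36 RPKM in CCl4, 2.68-fold lower, with a ratio of 0.373 (0.310 to 0.448). The span of *Cxcr6* overlaps that of *Fyco1* (5.51 and 7.05 RPKM). Beside *Cxcr6*, the cytotoxic genes *Gzma* (3.79 and 1.96 RPKM), *Nkg7* (5.09 and 3.18 RPKM) and *Gzmb* (2.92 RPKM and a listed 0) and also the NK receptor gene *Klrb1c* (1.53 RPKM and a listed 0) are the measured NK cell markers, of which only *Gzmb* was called lower.

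The inflammatory CC ligands included 3 higher genes and none lower. *Ccl2*, the main attractant of monocytes, had 1.13 RPKM in oil and 5.35 RPKM in CCl4, a ratio of 4.72 (3.51 to 6.46) from at least 53 and 279 reads. *Ccl3*, a macrophage product that binds Ccr1, had 1.29 and 4.74 RPKM, a ratio of 3.68 (2.76 to 4.98). Both were close to the listing limit in the oil library. *Ccl6*, a ligand of Ccr1 made by myeloid cells, had 41.2 and 105 RPKM, a ratio of 2.54 (2.44 to 2.65), and was the most abundant member in the CCl4 library. The myeloid ligand *Ccl9*, its near neighbour, had 12.6 and 21.6 RPKM, a ratio of 1.71 (1.53 to 1.91), and was not called. *Ccl24*, an attractant of eosinophils through Ccr3, had 7.14 and 8.78 RPKM, equal to the shift of the median gene. *Ccl4*, a macrophage and lymphocyte product, had 1.10 and 1.92 RPKM with a wide interval of the ratio of 1.01 to 3.12. *Ccl5*, made by T cells, NK cells and platelets, had 2.57 and 2.68 RPKM, a ratio of 1.04 (0.765 to 1.43). *Ccl8* had 1.32 RPKM in the oil library and was listed at 0 in the CCl4 library. The other 8 ligands of this group (*Ccl1*, *Ccl7*, *Ccl11*, *Ccl12*, *Ccl17*, *Ccl20*, *Ccl22* and *Ccl26*) were listed at 0 in both.

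Of the homeostatic ligands, which position cells in healthy tissue, *Cxcl12* and *Cxcl14* were higher. *Cxcl12*, made by stromal cells and known for retaining cells that carry Cxcr4, had 14.6 RPKM in oil and 54.9 RPKM in CCl4, a ratio of 3.76 (3.54 to 4.0). This value is for the transcript with the highest mean. The other listed transcripts of *Cxcl12* had 18.7 and 36.7 RPKM, a ratio of 1.97, and 11.7 and 23.9 RPKM, a ratio of 2.05, so that the size of the difference and, at 2-fold, the call turned on the transcript. *Cxcl14*, a ligand of epithelium and stroma, had 1.33 and 4.83 RPKM, a ratio of 3.63 (3.02 to 4.40). *Cxcl13*, which attracts B cells, had 5.95 and 8.68 RPKM, a ratio of 1.46 (1.29 to 1.66). *Ccl27a*, a skin ligand whose span overlaps *Il11ra1*, had 2.09 and 1.99 RPKM. *Ccl25*, known from thymus and gut, had 1.24 RPKM in the oil library and a listed 0 in the CCl4 library. *Ccl19*, the *Ccl21* copies, *Ccl27b*, *Ccl28* and *Cxcl17* were listed at 0 in both. Because *Ccl21a*, *Ccl21b*, *Ccl21c* and *Ccl21d* are near-identical copies, as are *Ccl27a* and *Ccl27b*, reads shared between them could have been dropped or split. Beside *Cxcl12*, the stromal genes *Col1a1* (3.02 and 131 RPKM), *Dcn* (36.1 and 214 RPKM) and *Lrat* (1.84 and 23.6 RPKM) were higher.

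The remaining ligands were near the limit. *Cx3cl1*, a membrane-anchored chemokine also called fractalkine, was listed at 0 in the oil library and had 1.18 RPKM in the CCl4 library. *Xcl1*, a product of T cells and NK cells, had 1.03 and 1.48 RPKM, from at least 15 and 24 reads, and its interval of 0.723 to 2.94 held both no difference and 2-fold.

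Of the receptors of monocytes and macrophages, *Cx3cr1* and *Ccr2* were higher and *Ccr1* was not called. *Cx3cr1* had the greatest ratio among the members listed in both libraries. *Cx3cr1* (chr9:120048683-120068296), the fractalkine receptor of patrolling monocytes and some tissue macrophages, had 1.0 RPKM in oil and 11.8 RPKM in CCl4. The ratio was 11.8 (10.3 to 13.6), rank 28 among the 12012 measured genes by increase with a listed 0 taken as 1 RPKM, from at least 218 and 2875 reads. *Ccr2*, the receptor of *Ccl2* on inflammatory monocytes, had 5.19 and 10.9 RPKM, a ratio of 2.10 (1.96 to 2.26). *Ccr2* exceeded the median gene by 0.77 on the log2 scale, less than 2-fold. *Ccr1*, shared by several inflammatory ligands, had 3.17 and 3.72 RPKM, a ratio of 1.17 (1.05 to 1.32), below that of the median gene. Beside these receptors, the macrophage gene *Marco* had 42.3 and 278 RPKM, *Lyz2*, of myeloid cells, 321 and 1645 RPKM, and *Itgax*, of dendritic cells and some macrophages, 1.25 and 10.2 RPKM. These had the greatest ratios of their lists. The monocyte genes *Ly6c2* (17.7 and 10.8 RPKM), *Chil3* (8.68 and 5.84 RPKM) and *F13a1* (3.70 and 3.36 RPKM) and the Kupffer cell gene *Clec4f* had ratios below 1.

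*Cxcr4*, the receptor of *Cxcl12* on leukocytes and progenitor cells, had 6.97 RPKM in oil and 26.8 RPKM in CCl4. Its ratio of 3.85 (3.55 to 4.18) was next to the 3.76 of the *Cxcl12* transcript with the highest mean. The other *Cxcl12* transcripts had lower ratios, 1.97 and 2.05. *Cxcr4* was the most abundant receptor in the CCl4 library. The starts of the 2 receptors with the greatest ratios among those listed in both libraries are shown for contrast with the ligands above, again from RefSeq (GRCm38.p6), with the same motifs in capitals.
Cxcr4, chr1:128592300-128592549, minus strand: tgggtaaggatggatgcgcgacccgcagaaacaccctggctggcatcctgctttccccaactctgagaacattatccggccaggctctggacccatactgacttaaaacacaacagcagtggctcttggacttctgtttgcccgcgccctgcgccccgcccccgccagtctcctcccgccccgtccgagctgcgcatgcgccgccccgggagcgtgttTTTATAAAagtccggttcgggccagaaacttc
Cx3cr1, chr9:120068297-120068546, minus strand: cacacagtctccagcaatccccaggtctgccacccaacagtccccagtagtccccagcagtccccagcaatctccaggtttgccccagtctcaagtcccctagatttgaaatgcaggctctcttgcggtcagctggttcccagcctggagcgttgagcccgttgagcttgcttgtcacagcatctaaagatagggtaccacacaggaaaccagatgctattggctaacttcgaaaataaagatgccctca
*Cxcr4* held TATAAA in both directions, 32 and 30 bases before its start, and none of the other motifs. In *Cx3cr1* none of the 4 motifs was found in this window.

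Other receptors were low. *Ccr3*, known from eosinophils, was listed at 0 in the oil library and had 3.07 RPKM in the CCl4 library, from at least 113 reads. *Ccr7*, which takes dendritic cells and naive T cells to lymph nodes, was likewise listed at 0 and had 2.07 RPKM, from at least 79 reads, just past the call. With the listed 0 taken as 1 RPKM, *Ccr7* exceeded the median gene by 0.75 on the log2 scale, less than 2-fold. *Cxcr5*, of B cells, and *Ccr10*, of plasma cells and skin T cells, were at 0 in the oil library and had 1.18 and 1.04 RPKM in the CCl4 library. The B cell genes *Cd79a* (1.4 and 5.62 RPKM) and *Cd79b* (3.67 and 11.2 RPKM) were called higher. *Ccr4*, *Ccr6*, *Ccr8*, *Ccr9*, *Cxcr1* and *Xcr1* were listed at 0 in both libraries. *Xcr1* marks cross-presenting dendritic cells, another marker of which, *Clec9a*, had 4.24 and 5.66 RPKM.

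All 4 atypical receptors had a ratio above that of the median gene, and 1 was called higher. *Ackr3*, which scavenges *Cxcl12*, had 2.62 RPKM in oil and 5.77 RPKM in CCl4, a ratio of 2.20 (1.93 to 2.52). *Ackr3* exceeded the median gene by 0.84 on the log2 scale, less than 2-fold. *Ackr2*, a scavenger of inflammatory CC ligands, had 2.94 and 5.47 RPKM, a ratio of 1.86 (1.67 to 2.08), the nearest below 2-fold. *Ackr1*, of venous endothelium and red cell precursors, had 2.86 and 5.05 RPKM, a ratio of 1.77 (1.14 to 2.79). *Ackr4*, which clears *Ccl19*, *Ccl21* and *Ccl25*, had 2.29 and 4.0 RPKM, a ratio of 1.75 (1.51 to 2.02). Endothelial *Stab2* had 41.3 and 70.0 RPKM and *Lyve1* 27.7 and 57.3 RPKM in the same libraries, ratios of 1.70 and 2.07. *Ackr4* overlaps *Acad11* (46.3 and 21.0 RPKM), and *Ackr1* overlaps *Cadm3* (a listed 0 and 3.43 RPKM).

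Ligands and receptors that bind each other were set side by side. For *Ccl2* with *Ccr2*, and *Cxcl12* with *Cxcr4* and *Ackr3*, both partners were higher. Relative to the median gene *Ccr2* and *Ackr3* lost this call, and the call of *Cxcl12* turned on the transcript. For *Cxcl1* with *Cxcr2* both were lower. *Cxcl16* was higher while *Cxcr6* was lower, with log2 ratios of 1.70 and -1.42. *Cx3cr1* was higher, and its ligand *Cx3cl1* was listed at 0 in oil and at 1.18 RPKM in CCl4. *Ccl3* and *Ccl6* were higher while their receptor *Ccr1* was not called. *Ccr3* was higher by its bound while its ligand *Ccl24* was not called. In *Cxcl9* and *Cxcl10* with *Cxcr3*, and *Cxcl13* with *Cxcr5*, no partner was called. These pairs come from textbook binding, and with 1 library a group no relation between partners was tested.

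**Figure D3:**
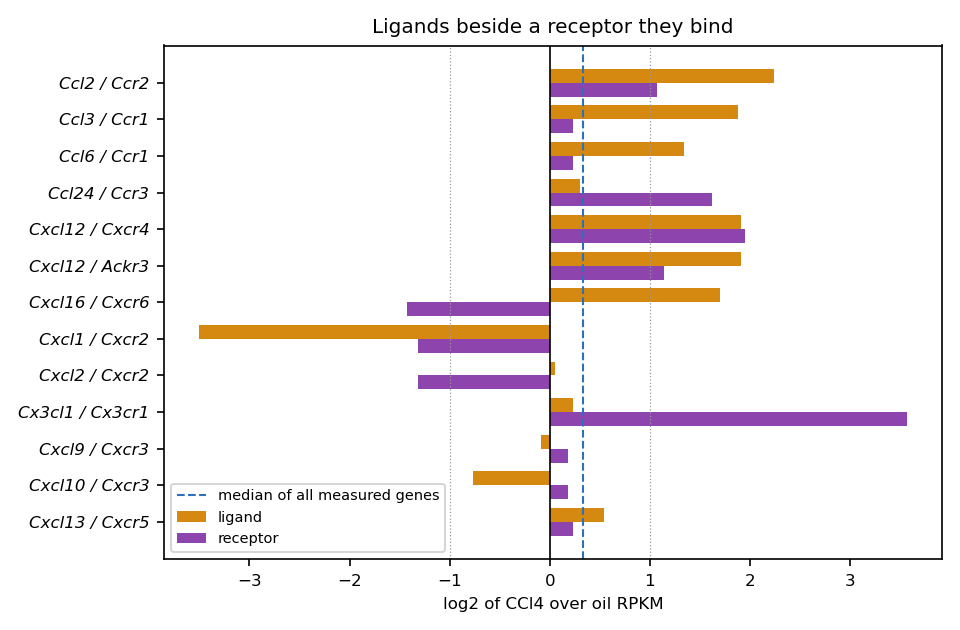
Log2 of the CCl4 over oil RPKM for ligands (orange) beside a receptor they bind (purple), with dotted lines at 2-fold and a dashed line at the median of all measured genes. Bars for Cx3cl1, Ccr3 and Cxcr5 are bounds from a listed 0 in the oil library. The Cxcl16 and Cxcr6 bars point in opposite directions, at 1.70 and -1.42.

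By position, calls did not run through whole gene clusters. In the chromosome 11 cluster of *Ccl5*, *Ccl9*, *Ccl6*, *Ccl3* and *Ccl4* (chr11:83525778-83664683) all 5 genes were measured and 2 were higher. In the other chromosome 11 cluster (chr11:82035577-82179812), of *Ccl2*, *Ccl7*, *Ccl11*, *Ccl12*, *Ccl8* and *Ccl1*, 2 of 6 genes were measured and 1 was higher. The receptor cluster on chromosome 9 held *Ccr3* and *Ccr2*, which were higher, *Ccr1*, which was not called, and *Cxcr6*, which was lower. *Ccr9* and *Xcr1* in the same cluster were at 0. The spans of 15 measured members overlapped another annotated gene, and 5 of these were among the 16 called (*Ccl3*, *Ccl6*, *Cxcl16*, *Cx3cr1* and *Cxcr6*). Whether reads were counted by strand is not given in the sources used here, so reads of overlapping genes cannot be told apart.

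Of 46 measured genes that carry the receptor signal, 22 were higher and none was lower, beside 16.5% and 5.39% of all measured genes, with a median log2 ratio of 0.99. Relative to the median gene, 9 (19.6%) were higher, beside 9.39% of all measured genes. The 22 included the inhibitory G protein subunit *Gnai2* (47.7 and 108 RPKM), the arrestins *Arrb1* (10.2 and 25.5 RPKM) and *Arrb2* (22.6 and 46.0 RPKM), and the receptor kinase *Grk3* (1.35 and 4.45 RPKM). The Rac activators *Dock2* (5.62 and 11.9 RPKM) and *Prex1* (6.49 and 17.2 RPKM), both of leukocytes, were higher too. *Rgs10*, which ends G protein signals, had the greatest ratio of the list, 5.91, with 4.32 and 25.5 RPKM. *Gnai3* and *Stat3* were among those not called, at 24.0 and 20.7 RPKM and at 36.0 and 26.1 RPKM.

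Among the signals known to induce chemokines, 8 of 31 measured genes (25.8%) were higher and 2 (6.45%) were lower, beside 16.5% and 5.39% of all measured genes. Relative to the median gene, 1 (3.23%) was higher and 2 were lower, beside 9.39% and 9.4%. The cytokines *Tnf*, *Il6*, *Ifng*, *Il17a*, *Il4*, *Il13*, *Il10*, *Csf2* and *Csf3* were listed at 0 in both libraries. The lower genes were the subunits of the interleukin-1 receptor, *Il1r1* (20.0 and 9.30 RPKM, 2.15-fold) and *Il1rap* (22.6 and 8.98 RPKM, 2.52-fold), while *Il1a* was higher (4.68 and 10.1 RPKM) and *Il1b* was not called (13 and 10.3 RPKM). Higher genes of NF-kappaB control were *Tnfaip3* (2.92 and 7.48 RPKM), *Nfkbie* (2.52 and 5.94 RPKM) and *Rel* (1.41 and 2.89 RPKM). The others were *Tnfrsf1b*, *Ifngr1*, *Irf8* and *Il33*, with ratios of 2.21, 2.09, 2.08 and 2.02. *Nfkb1* and *Rela* were not called, at 10.8 and 16.5 RPKM and at 11.5 and 13.2 RPKM.

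Of 27 genes that present or process chemokines, 8 (29.6%) were higher and 2 (7.41%) were lower, beside 16.5% and 5.39% of all measured genes. Relative to the median gene, 4 (14.8%) were higher and 4 lower, beside 9.39% and 9.4%. *Sdc4*, a heparan sulfate carrier of hepatocytes, had 231 RPKM in oil and 62.5 RPKM in CCl4, 3.69-fold lower. *Cpn1*, a liver carboxypeptidase that trims inflammatory peptides, had 79.8 and 37.6 RPKM, 2.12-fold lower. The proteoglycans *Hspg2* (9.84 and 25.9 RPKM), *Gpc1* (3.09 and 6.32 RPKM) and *Gpc3* (4.75 and 10.3 RPKM) and the sulfotransferase *Hs2st1* (2.52 and 5.20 RPKM) were higher. So were the proteases *Adam10* (5.83 and 13.5 RPKM), which sheds Cxcl16 and fractalkine, and *Mmp14* (12.6 and 44.2 RPKM). *Mmp2* and *Mmp12* were listed at 0 in the oil library and had 28.2 and 15.7 RPKM in the CCl4 library. *Dpp4*, which clips the ends of Cxcl12 and Cxcl10, had 18.3 and 20.5 RPKM.

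**Figure D4:**
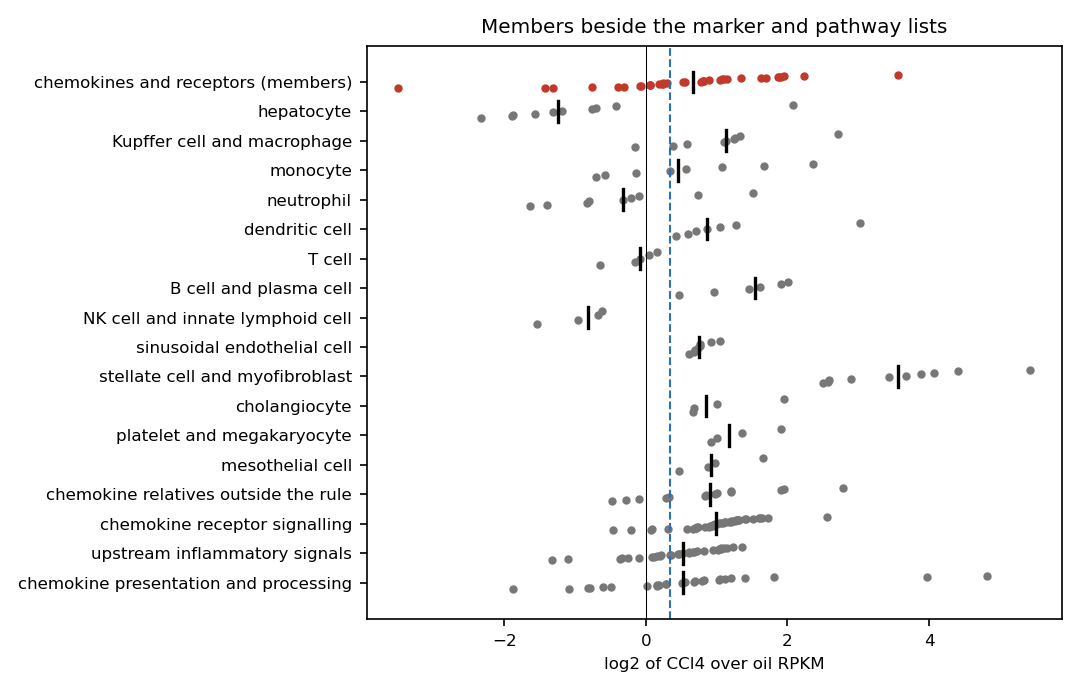
Log2 of the CCl4 over oil RPKM for each measured gene of the members (red) and of the marker and pathway lists (grey), with a bar at each median and a dashed line at the median of all measured genes. Members spread on both sides of the line with a median of 0.66. All stellate cell markers lie to its right, and all but 1 of the hepatocyte markers to the left.

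Of 14 measured relatives that the symbols do not cover, 6 (42.9%) were higher and none was lower, beside 16.5% and 5.39% of all measured genes. Relative to the median gene, 3 (21.4%) were higher, beside 9.39%. The 6 were the platelet chemokines *Pf4* (4.46 and 16.8 RPKM) and *Ppbp* (3.85 and 7.70 RPKM), the chemokine-binding *Ccrl2* (3.50 and 8.04 RPKM) and *Cd74* (123 and 283 RPKM), a receptor of the cytokine Mif. The complement receptors *C5ar1* (3.27 and 12.6 RPKM) and *C3ar1* (3.08 and 21.2 RPKM), which also guide leukocytes, were the others.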

How the data were processed

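Total RNA of 2 mouse hepatocyte preparations was sequenced. The authors deposited RPKM values for 27457 mRNA transcripts and for annotated lncRNAs, and read counts and RPKM values of new lncRNAs. The submitters' processing notes name CASAVA 1.4, TopHat2 and mm10, while the counting program and annotation version are not given in the sources used here. Deposited log2 change, p-value and q-value columns hold the authors' own comparison and were not used.

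RefSeq identifiers were matched to symbols in a GRCm38.p6 gene table (27049 matched), and for each gene the transcript of highest mean RPKM was kept. Ratios used no pseudocount, a listed 0 was set to 1 RPKM, and genes at 1 RPKM or more in at least 1 library counted as measured. With 1 library a group no test was run. Values under 1 RPKM listed as 0 were checked on new lncRNAs, whose other table has no limit: all 1354 (oil) and 1347 (CCl4) listed at 0 were under 1 RPKM there.

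Library totals were those that gave whole reads (within 0.02) for 210 of 221 and 224 of 236 annotated RNAs under 400 bases. Reads of a gene were taken at the smallest length, searched between 150 and 30000 bases, with whole reads in each library, and are lower bounds. On 1397 new lncRNAs they equalled the deposited counts in 83.3% and exceeded them in 0, and in simulated data 59.0% of 1852 transcripts were recovered exactly and 0 exceeded. Intervals are exact Clopper-Pearson intervals at 95% on these reads, so they are wide rather than narrow, and PCR copies are not independent molecules. In simulated data 94.9% of 197 4-fold changes were called in the right direction. The simulation held counting error only, without differences between animals or preparations, so it does not give the accuracy of calls between these libraries. Changes smaller than 4-fold were not simulated.

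The members and the lists were chosen with earlier results of these data known. Measured members are named with their values, and of each list examples of its called genes and defining markers. Some genes that enter the counts are not reported here by name. The examples, and further list genes that were not called, were picked after their values were seen. *Cd68*, *Ly6g*, *Trbc2*, *Cxcl11* and the chemokine pseudogenes were not analysed here. Promoter sequences are from RefSeq. Alternatives tried were other pseudocounts, scalings, transcripts, filters and fold thresholds. The software was matplotlib 3.10.9, pandas 2.3.3, scipy 1.17.1, numpy 2.4.6 and Python 3.11.15.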

Additional observations from a re-analysis of the deposited data

How the results depend on the processing

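The precision of these values is limited by 1 library a group, by the listing limit of 1 RPKM, since 5 measured members were at 0 in oil and 2 in CCl4, and by depth in members with few reads such as *Xcl1* and *Ccl4*. Of the 13 members called higher and 3 called lower, 2 and 1 passed at 4-fold (*Cx3cr1*, *Ccl2* and *Cxcl1*), beside 2.43% and 0.833% of all measured genes. With a mean of at least 5 RPKM, 11 members were left, of which 7 were higher and 1 lower, beside 14.4% and 7.85% of all genes, and the median log2 ratio of the members was 1.10 in place of 0.66. Members called lower numbered 1 (2.78%) with 1 RPKM added, beside 4.45% of all genes, and 5 (13.9%) where listed zeros were kept with 0.1 RPKM added, beside 6.22%. In the pathway and marker lists together 75 genes were higher and 13 lower, beside 16.5% and 5.39% of all measured genes. With scaling to the median gene these counts became 41 and 21, beside 9.39% and 9.4%. The pooled lists mix cell type markers with pathway genes. Their share called was not computed, so these counts cannot be set against the shares of all genes. Of the measured members, 10 (27.8%) were higher and 3 (8.33%) lower with the counting interval past 2-fold. The share of all genes was not computed for that setting. The other counts and medians (37 of 46 alternative values) stayed within 1.5 times the count or within the interval of the median. This interval, 0.18 to 1.07 in log2, takes members as independent although they share 2 libraries. It holds the member median of 0.36 found by scaling to the median gene. Of 128 alternative log2 ratios of called members, 0 changed sign. That was nearly fixed in advance, since pseudocounts cannot change a sign and the scaling shifts were only 0.30, 0.23 and -0.20 in log2. Of 160 alternative log2 ratios of members not called, 15 changed sign, in 10 members. Some of these, such as *Cxcl2*, *Ccl5* and *Ccr1*, were near no difference. For *Cx3cl1*, *Ccr10* and *Cxcr5*, also among them, the main ratio is only a bound from a listed 0. Of all 288, 69 lay outside the main counting interval. Leaving out the 15 of 36 measured members that overlap another gene, an alternative chosen after seeing the data, gave 9 higher and 2 lower. The share of all genes under the same exclusion was not computed. No paired analysis was possible because each group has 1 library, and no replicate could be left out.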
